A study of Mus musculus with 56 samples.

Results

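The liver transcriptome was compared between the 8 mice labelled L-NAME and the 8 mice labelled control, 16 of the 56 livers of the series, taken by their labels alone and over all genes. All mice were female APOE*3Leiden.CETP mice, which carry human APOE*3Leiden, APOC1 and CETP genes and so handle lipoproteins much as humans do. The labels give an age of 9 to 14 weeks without saying at which point, and by the study's methods the control and inhibitor mice were killed only after weeks of treatment. All ate a Western-type diet with 15% cacao butter and 0.15% cholesterol. Mice of both groups were gavaged with the carboxymethyl cellulose vehicle, and the L-NAME group also had L-NAME in its drinking water, at a labelled dose of 0.2% and a described range of 0.12 to 0.2%. The other 40 mice formed 5 groups of 8 given the kinase inhibitors imatinib (150 mg/kg), nilotinib (10 or 30 mg/kg) or ponatinib (3 or 10 mg/kg) with the same diet. How long L-NAME was given, and whether its mice were randomized with the rest, is not given in the sources used here.

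L-NAME is an arginine analogue that inhibits the nitric oxide synthases, the enzymes that make nitric oxide from arginine. Nitric oxide from the endothelium relaxes vessels through guanylate cyclase and cGMP, and L-NAME in drinking water is a common way to raise blood pressure in rodents. In the liver, fatty acid and cholesterol synthesis are driven largely by the transcription factors SREBP-1c and SREBP-2, which act together with NF-Y, a factor that binds the CCAAT box.

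Reads were counted on genes in every mouse, and 14314 of 45513 gene identifiers passed a filter on low counts. L-NAME mouse 10 had 97473341 reads on genes, whereas the other 55 libraries had between 5342379 and 17996732, with a median of 7565837. Levels are in CPM (counts scaled to library size, with TMM factors), and every fold change is a log2 difference with its standard error (SE) from a single edgeR quasi-likelihood fit of the 56 mice. A gene was called changed at a Benjamini-Hochberg adjusted p below 0.05. Hepatocyte transcripts dominated both groups, with summed levels of 109200 to 183800 CPM in control and 131200 to 172500 CPM with L-NAME. Of 19 markers of exocrine pancreas, fat, muscle and mesothelium, 4 passed the filter, all of pancreas or mesothelium, and their sum stayed at 15.65 CPM or less. The fat and muscle markers had too few reads to pass the filter and are not in the sum. In whole liver, fewer cells of a type and less RNA per cell cannot be told apart.

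The L-NAME libraries also differed from control in measures that involve no named gene. Of uniquely aligned reads, 8.82%, 10.67% and 16.75% (lowest, median, highest) lay outside annotated genes with L-NAME, compared to 7.55%, 7.85% and 8.68% in control. All 8 L-NAME mice were above every control mouse (exact permutation test, two-sided, p = 0.000155, the smallest value 8 against 8 allow, adjusted p = 0.00175 over 15 library measures), and the difference was 3.02 percentage points with mouse 10 and 2.2 without it (exact permutation test, p = 0.000311). The inhibitor groups had medians of 9.80% (imatinib), 9.51% and 9.84% (the low and high nilotinib dose), 8.41% and 10.95% (the low and high ponatinib dose). Its part in the results was tested only by a further fit with the share as a covariate (the covariate fit). Since the share did not overlap between L-NAME and control, that fit cannot fully tell it apart from the treatment. Of 146 named genes called against control, 48 passed in the covariate fit and 145 kept their direction. Alignments that were not unique averaged 35.51% with L-NAME and 32.45% in control (exact permutation test, p = 0.000466, adjusted p = 0.00175). Ambiguous reads averaged 2.615% and 3.007% of uniquely aligned reads (exact permutation test, adjusted p = 0.0392, and 0.0765 without mouse 10). The part of non-unique and ambiguous reads in the results was not tested.

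**Figure D1:**
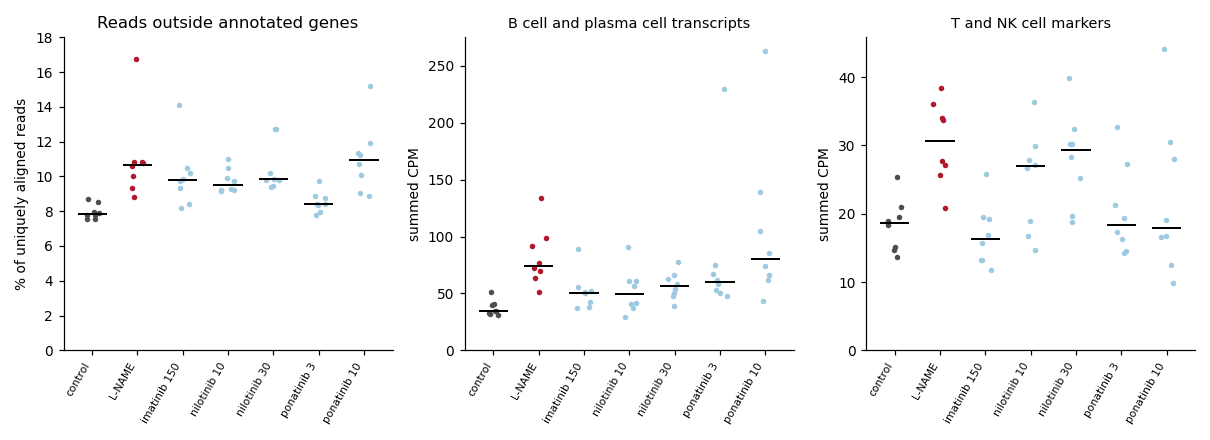
Percentage of uniquely aligned reads outside annotated genes, and summed CPM of B cell and plasma cell transcripts and of T and NK cell markers, in each of the 56 livers (points) with group medians (bars). The 8 L-NAME mice lie between 8.82% and 16.75% of reads outside genes, all above the control mice.

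Between L-NAME and control 1675 genes changed, 11.7% of the genes tested, of which 785 were higher (5.48%) and 890 lower (6.22%). These shares are the background for the counts of list members called against control below. At the study's own cut-off, an unadjusted p below 0.01, 1974 genes passed (13.8%, of which 6.6% higher and 7.19% lower). Most changes were small, with a median absolute log2 fold change of 0.61 among the higher and 0.56 among the lower genes, and 57 higher and 87 lower genes had a log2 fold change beyond 1. The levels of all 8 L-NAME mice lay above all 8 control mice for 143 genes (0.999%) and below them for 225 genes (1.57%). With the share of reads outside genes as a covariate 254 genes passed, 252 of them among the 1675. Without mouse 10, 1409 genes passed, 1389 of them among the 1675. Of the 785 higher genes 1, and of the 890 lower genes 7, also passed against the mean of the inhibitor groups in the same direction.

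Transcripts of fatty acid, triglyceride and cholesterol synthesis were lower in L-NAME livers. Of 23 lipogenesis genes tested, 10 fell and none rose at the adjusted cut-off, and the median log2 fold change of the 23 was -0.52, compared to 0.02 over all genes tested. The 10 were Acly, Acacb, Fasn, Elovl6, Scd1, Fads2, Me1, Gpam, Lpin1 and Pklr. Of the cholesterol list of 26 genes, which spans synthesis and its control, 5 fell and none rose (among them Sqle, Hsd17b7 and Srebf2), with a median of -0.55. In the covariate fit 5 lipogenesis genes (Fasn, Acly, Elovl6, Scd1 and Pklr) and 1 cholesterol gene passed, while the medians were -0.77 and -0.41.

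Promoter stretches are shown for Hsd17b7, Srebf2 and Fasn, which fell against control, for Nsdhl and Mvd, which with Hsd17b7 passed against the mean of the kinase inhibitor groups, and for Hmgcs1, which passed in neither comparison (adjusted p = 0.154 and 0.178) and holds the sterol element pattern. RefSeq (GRCm38.p6) promoter windows were at hand for 18 of the 26 cholesterol genes and 17 of the 23 lipogenesis genes, each 250 bases before the start site. The CCAAT box, read on both strands (CCAAT or ATTGG), occurred in 17 of 18 cholesterol genes (94.4%) and 11 of 17 lipogenesis genes (64.7%), compared to 4200 of 10390 tested genes with a window (40.4%). A letter pattern of the sterol regulatory element, TCACNCCAC on both strands, occurred in 1 of 18 (Hmgcs1), 1 of 17 (Mlxipl) and 131 of 10390 (1.26%). A match is a run of letters and not a shown binding site. The stretches of 150 bases with the most matches are printed for 6 genes, 5′ to 3′ on the gene's own strand, with both patterns in capitals. They run up to the start site, except that of Hmgcs1, which ends 26 bases before it, and in Fasn CCAAT and ATTGG overlap.
Hsd17b7, chr1:169969206-169969355, minus strand: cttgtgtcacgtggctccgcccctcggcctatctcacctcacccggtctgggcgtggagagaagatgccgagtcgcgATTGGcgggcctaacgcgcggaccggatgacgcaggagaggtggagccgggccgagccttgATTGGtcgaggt
Srebf2, chr15:82147119-82147268, plus strand: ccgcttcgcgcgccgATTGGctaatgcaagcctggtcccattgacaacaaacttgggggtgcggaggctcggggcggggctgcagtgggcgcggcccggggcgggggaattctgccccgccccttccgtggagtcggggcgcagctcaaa
Nsdhl, chrX:72918371-72918520, plus strand: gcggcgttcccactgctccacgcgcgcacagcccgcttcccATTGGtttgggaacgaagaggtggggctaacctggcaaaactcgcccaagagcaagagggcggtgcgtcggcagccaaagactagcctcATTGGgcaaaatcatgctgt
Mvd, chr8:122443423-122443572, minus strand: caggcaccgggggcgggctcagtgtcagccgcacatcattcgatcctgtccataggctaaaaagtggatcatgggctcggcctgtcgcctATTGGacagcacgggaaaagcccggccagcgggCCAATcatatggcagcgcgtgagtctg
Hmgcs1, chr13:119690175-119690324, plus strand: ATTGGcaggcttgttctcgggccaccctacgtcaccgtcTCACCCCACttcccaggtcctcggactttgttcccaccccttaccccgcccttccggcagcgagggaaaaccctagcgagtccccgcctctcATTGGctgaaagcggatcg
Fasn, chr11:120824548-120824697, minus strand: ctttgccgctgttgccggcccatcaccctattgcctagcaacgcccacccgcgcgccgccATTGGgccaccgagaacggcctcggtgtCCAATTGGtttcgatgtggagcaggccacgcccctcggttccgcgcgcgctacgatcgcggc

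Acly, which makes cytosolic acetyl-CoA from citrate, had 178.9, 449.4 and 852.4 CPM (lowest, median, highest) in control and 78.54, 134.7 and 246.2 CPM with L-NAME. For 6 of 8 L-NAME mice the level lay below every control mouse, and the log2 fold change was -1.71 ± 0.40 (SE, adjusted p = 0.00309). Fasn, fatty acid synthase, had 667.5, 1321 and 1986 CPM in control and 308.8, 431.2 and 866.5 CPM with L-NAME, with 7 of 8 L-NAME mice below every control mouse (-1.42 ± 0.34, adjusted p = 0.00354). Elovl6, which lengthens palmitate, had 101.5, 165.5 and 214.5 CPM in control. With L-NAME its levels were 42.35, 64.71 and 97.2 CPM, so that the groups did not overlap (-1.38 ± 0.30, adjusted p = 0.00154). Scd1, the desaturase that makes oleate and one of the most abundant liver transcripts, had a median of 23700 CPM in control (19610 to 33700) and 13000 CPM with L-NAME (6536 to 16030), again without overlap (-0.99 ± 0.20, adjusted p = 0.000585).

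Gpam, which adds the first acyl chain in triglyceride synthesis, had 61.69, 106.9 and 292 CPM in control and 23.73, 41.55 and 51.37 CPM with L-NAME. The groups did not overlap (-1.72 ± 0.37, adjusted p = 0.00113), and in the covariate fit its adjusted p was 0.053. Acacb, the acetyl-CoA carboxylase at the outer mitochondrial membrane, fell by 0.95, Fads2, a desaturase of polyunsaturated fatty acids, by 0.91, and Pklr, liver pyruvate kinase, by 0.87 on the log2 scale. Lpin1, a phosphatidate phosphatase, fell by 0.73 and Me1, malic enzyme, by 0.78, but Me1 lost its call in 12 of the 16 fits that leave out 1 mouse (adjusted p up to 0.097). The regulators of the pathway did not pass. Srebf1, which encodes SREBP-1c, was at -0.28 ± 0.17 on the log2 scale (adjusted p = 0.354), and Mlxipl, which encodes the carbohydrate-response factor ChREBP, at 0.41 ± 0.17 (adjusted p = 0.107).

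Srebf2, which encodes SREBP-2, had 54.55, 65.41 and 75.69 CPM in control and 33.43, 42.61 and 55.65 CPM with L-NAME, with 7 of 8 L-NAME mice below every control mouse (-0.62 ± 0.15, adjusted p = 0.0034). Hsd17b7, a sterol ketoreductase, fell from a median of 49.09 to 31.94 CPM (-0.68 ± 0.17, adjusted p = 0.00488). Sqle, squalene epoxidase, spread widely in control (8.485, 27.39 and 47.89 CPM) and less with L-NAME (5.398, 10.74 and 15.5 CPM). Its fold change was -1.32 ± 0.44 (adjusted p = 0.0396), and the call was lost in 11 of the 16 fits that leave out 1 mouse, at adjusted p up to 0.0951.

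Nsdhl, a sterol dehydrogenase, did not pass adjustment (-0.70 ± 0.26, adjusted p = 0.0717), with 5 of 8 L-NAME mice below every control mouse. Nor did Dhcr7, which makes the last step to cholesterol, although all 8 L-NAME mice lay below control (-0.57 ± 0.22, adjusted p = 0.0815). Hmgcs1 (-0.53), Mvd (-0.86), Fdps (-0.61), Cyp51 (-0.63), Insig1 (-0.60) and Stard4 (-0.45) had log2 fold changes below 0 without passing.

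**Figure D2:**
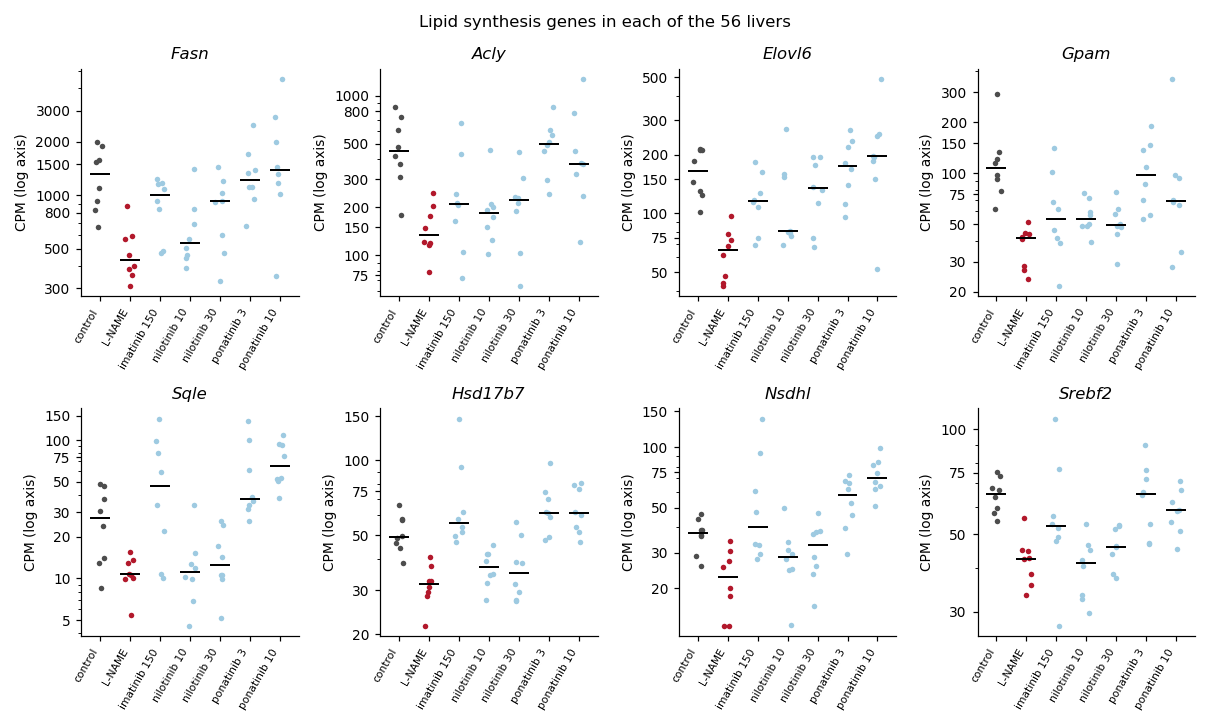
Levels of 8 genes of lipid synthesis and its control in each of the 56 livers (points, CPM on a log axis) by group, with group medians (bars). For Fasn the L-NAME median is 431.2 CPM against 1321 CPM in control, and for Sqle the L-NAME median of 10.74 CPM lies beside those of the nilotinib groups, 11.09 and 12.49 CPM.

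The lipid genes were also lower with L-NAME than in some of the kinase inhibitor groups, in comparisons that do not use the control mice. Against the mean of the 5 inhibitor groups, 12 genes passed adjustment (0.0838%, with 0.014% higher and 0.0699% lower). At an unadjusted p below 0.01 there were 427 (2.98%), of which 185 were higher (1.29%) and 242 lower (1.69%) with L-NAME. Of the 26 cholesterol genes 20 were lower at this cut-off and none higher (median log2 fold change -0.59, compared to 0.02 over all genes tested), and of the 23 lipogenesis genes 9 were lower and none higher (median -0.55). Without mouse 10 these counts were 15 and 7. No gene then passed adjustment in edgeR, with 317 genes below an unadjusted p of 0.01 and 1134 below 0.05, and none passed in the covariate fit either (294 and 1068). The L-NAME mean was the lowest of the 7 groups for 13 of 26 cholesterol genes (50%) and 13 of 23 lipogenesis genes (56.5%), compared to 12.9% of all genes tested.

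The 12 genes were Hsd17b7, Nsdhl and Mvd of cholesterol synthesis, Elovl6, Cyp8b1, the peroxisomal transporter Abcd3, glutamine synthetase Glul with its pseudogene Glns-ps1, Gm3571 and Cyp1a2, all lower, and Saa3 and the class I gene H2-Q4, both higher. Reads of Glul and Glns-ps1 can fall on either copy, and those of H2-Q4 on other class I genes, so their counts are uncertain. Of the 3 cholesterol genes that passed, Mvd had the largest change, at -1.49 (adjusted p = 0.042), but it did not pass against control. Its median was 8.819 CPM with L-NAME and 16.47 CPM in control. With imatinib it was 36.94 CPM, with ponatinib 3 and 10 mg/kg 23.79 and 38.5 CPM, and with nilotinib 10 and 30 mg/kg 13.79 and 18.21 CPM. Cyp1a2 differed by -0.60 (adjusted p = 0.042), but its median was 472 CPM with L-NAME, 497.8 CPM in control, 3386 CPM with imatinib and between 477.8 and 610.2 CPM in the other inhibitor groups, of which imatinib alone stood far above L-NAME.

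Comparisons with each of the 5 inhibitor groups, added after the data were seen, gave different counts. At an unadjusted p below 0.01, 18 of the 26 cholesterol genes were lower with L-NAME than with imatinib (background 2.81% of all genes), 22 than with ponatinib 3 mg/kg (4.62%) and 21 than with ponatinib 10 mg/kg (1.34%). None was lower than with nilotinib 10 mg/kg (0.894%) or 30 mg/kg (0.81%). The median log2 fold changes of the list were -0.73, -0.89 and -1.07 against imatinib and the ponatinib doses, and -0.09 against either nilotinib dose. After adjustment 14, 19 and 19 were lower, and against ponatinib 3 mg/kg 4 in the covariate fit. Without mouse 10 the counts at an unadjusted p below 0.01 were 17, 22 and 21, and 0 for both nilotinib doses. Whether the differences from imatinib and ponatinib themselves differ from those from nilotinib was not tested. Sqle had a median of 46.24 CPM with imatinib, 37.55 and 64.56 CPM with ponatinib 3 and 10 mg/kg, but 11.09 and 12.49 CPM with nilotinib 10 and 30 mg/kg. L-NAME differed from these by -2.36 ± 0.45, -2.38 ± 0.45 and -2.66 ± 0.45 (adjusted p = 0.00104, 0.0026 and 0.00082), and from nilotinib by -0.24 ± 0.44 and -0.41 ± 0.44 (adjusted p = 0.953 and 0.978).

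Across all genes, 436 genes passed adjustment between L-NAME and imatinib (3.05%), 565 between L-NAME and ponatinib 3 mg/kg (3.95%) and 60 between L-NAME and ponatinib 10 mg/kg (0.419%). At an unadjusted p below 0.01 these shares were 6.55%, 7.98% and 2.71%. Without mouse 10 these were 270, 315 and 24. They were 336, 31 and 56 in the covariate fit. No gene passed against nilotinib 10 mg/kg in edgeR (0.0%), where 298 genes had an unadjusted p below 0.01 (2.08%) and 1156 below 0.05. Against nilotinib 30 mg/kg 1 gene passed (0.00699%), and 213 had an unadjusted p below 0.01 (1.49%) and 821 below 0.05. That gene, named after its value was seen, was Plxnb1, a semaphorin receptor, which was higher with L-NAME by 0.66 ± 0.13 (adjusted p = 0.0255). A gene that did not pass is not shown to be alike in L-NAME and nilotinib mice.

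The lipogenesis genes followed another order. Of 23, 13 and 14 were lower with L-NAME than with ponatinib 3 and 10 mg/kg at an unadjusted p below 0.01, 3 than with imatinib, and 1 and 2 than with nilotinib 10 and 30 mg/kg. Fasn had medians of 1227 and 1380 CPM with ponatinib 3 and 10 mg/kg, 1006 CPM with imatinib, 926.7 CPM with nilotinib 30 mg/kg and 538.3 CPM with nilotinib 10 mg/kg, all above the L-NAME median of 431.2 CPM. The difference passed adjustment against the ponatinib doses (-1.45 ± 0.34 and -1.89 ± 0.35, adjusted p = 0.00965 and 0.00177) and not against imatinib (-0.91 ± 0.34, adjusted p = 0.15) or nilotinib (-0.43 ± 0.34 and -0.82 ± 0.34, adjusted p = 0.813 and 0.72). Scd1 had medians of 13000 CPM with L-NAME, 13010 CPM with imatinib, 13190 and 13800 CPM with nilotinib and 13590 CPM with ponatinib 10 mg/kg. Of the 5 inhibitor groups it passed only against ponatinib 3 mg/kg (21290 CPM, -0.85 ± 0.20, adjusted p = 0.00921).

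Genes of lipid export and lipoprotein structure changed in both directions. Of 29 apolipoprotein, lipase and lipid transfer genes 8 rose and 4 fell, beside 5.48% and 6.22% of all genes tested, with a median of 0.19. None of the 29 passed adjustment against the mean of the inhibitor groups. Apoa1, the main protein of HDL, had 3162, 4703 and 7624 CPM in control and 6299, 8610 and 10380 CPM with L-NAME, with 7 of 8 L-NAME mice above every control mouse (0.81 ± 0.19, adjusted p = 0.00214). Apoc4, a minor protein of VLDL, had a median of 277.4 CPM in control (262.3 to 385.1) and 550.4 CPM with L-NAME (397.5 to 837.4), without overlap (0.91 ± 0.15, adjusted p = 2.82e-05). The medians of the inhibitor groups were 7041 to 8509 CPM for Apoa1 and 381.9 to 612.6 CPM for Apoc4. Apoa2 (0.85), Apoc1 (0.97), Apoc2 (0.65), Apoc3 (0.72), Apoe (0.43) and Apoh (0.41) rose against control as well. Apoe and Apoc1 may also take up reads of the human transgenes, so their levels are uncertain.

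The 4 that fell act in the assembly or uptake of large lipoproteins or in their breakdown. Mttp, which loads lipid onto apolipoprotein B, had 299.3, 322.5 and 393.8 CPM in control and 179.8, 224.1 and 268.3 CPM with L-NAME, without overlap (-0.57 ± 0.12, adjusted p = 0.000655). Apob itself fell by 0.46 from a median of 3998 to 2719 CPM (adjusted p = 0.00455), Lrp1, a remnant receptor, by 0.52 (adjusted p = 0.00586) and Lipa, the lysosomal acid lipase, by 0.62 (adjusted p = 0.00553). In the covariate fit Apoa1, Apoc1, Apoc2 and Apoc4 passed and none of the 4 lower genes did. With an offset for transcript length, which moved with the fold changes of all genes, 5 of the 29 rose and 3 fell.

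In bile acid synthesis and sterol export 5 of 27 genes fell and none rose, beside 6.22% and 5.48% of all genes tested. Cyp8b1, the 12-alpha hydroxylase that leads to cholic acid, had 118.1, 156.9 and 278.6 CPM in control and 55.78, 88.33 and 141.5 CPM with L-NAME (-0.92 ± 0.27, adjusted p = 0.0159). Every inhibitor group had a higher median, between 159.8 and 204.6 CPM, and L-NAME lay below their mean by -1.02 (adjusted p = 0.042). Akr1d1 (-0.47), the phospholipid exporter Abcb4 (-0.46), the basolateral exporter Abcc3 (-0.52) and the uptake carrier Slco1b2 (-0.45) fell less, and Akr1d1 lost its call in 4 of the 16 fits that leave out 1 mouse (adjusted p up to 0.0701). None of the 5 passed in the covariate fit.

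Fatty acid oxidation genes went both ways, with 2 of 34 higher and 4 lower, beside 5.48% and 6.22% of all genes tested. Hadha, the alpha subunit of the mitochondrial trifunctional protein, had a median of 423.7 CPM in control (354.1 to 477.9) and 296.2 CPM with L-NAME (271.8 to 346.3), without overlap (-0.46 ± 0.10, adjusted p = 0.00154). The fatty acid transporter Cd36 fell by 0.56 (adjusted p = 0.00193), Ehhadh of peroxisomal oxidation by 0.51 (adjusted p = 0.0403) and Ppara, the receptor that drives the pathway, by 0.89 (adjusted p = 0.0337). Without control mouse 46, in which Ppara was at 113.5 CPM against a control median of 38.08 CPM, the call was lost, as in 4 other fits without 1 mouse (log2 fold change no nearer to 0 than -0.54, adjusted p up to 0.21), and that of Ehhadh was lost in 10 (adjusted p up to 0.0981). Fabp1, the liver fatty acid binding protein, rose by 0.86 (adjusted p = 0.00832) and Acaa1a, a peroxisomal thiolase, by 0.52 (adjusted p = 0.0227). Acaa1a lost its call without control mouse 1 or 12 or L-NAME mouse 5 (up to 0.0855), and in the covariate fit none of the 34 passed.

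Of 22 genes of gluconeogenesis and insulin response 7 fell and 1 rose, beside 6.22% and 5.48% of all genes tested, with a median of -0.33. Pcx, pyruvate carboxylase, had 657.4, 768.6 and 890.8 CPM in control and 392.4, 493.2 and 651 CPM with L-NAME, without overlap (-0.54 ± 0.11, adjusted p = 0.00059). Pygl, liver glycogen phosphorylase, fell from a median of 598.6 to 371.3 CPM (-0.73 ± 0.16, adjusted p = 0.00113), and Tat, tyrosine aminotransferase, from 946.4 to 587.5 CPM (-0.78 ± 0.19, adjusted p = 0.00331), both without overlap. The insulin receptor substrates Irs1 and Irs2 fell by 0.52 and 1.26, the gluconeogenic phosphatase Fbp1 by 0.36 and the glucose carrier Slc2a2 by 0.48. The glucagon receptor Gcgr rose from a median of 272.1 to 454.2 CPM (0.55 ± 0.13, adjusted p = 0.00164). The Irs2 call was lost without L-NAME mouse 10 or 45 (adjusted p up to 0.0519), that of Fbp1 without L-NAME mouse 10 or control mouse 22 (up to 0.0757) and that of Irs1 in 4 fits (up to 0.0745). None of the 22 passed in the covariate fit. Against the mean of the inhibitor groups none passed adjustment either, and the median was -0.17. Mean Pcx was 522.4 CPM with L-NAME, 514.3 to 603.3 CPM with imatinib, nilotinib and ponatinib 10 mg/kg, and 743 CPM with ponatinib 3 mg/kg. Mean Tat was 593.1 CPM with L-NAME, 559.7 to 663.3 CPM with imatinib and nilotinib, and 1040 and 928 CPM with ponatinib 3 and 10 mg/kg.

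Nos3, the endothelial synthase, was the only nitric oxide synthase above the filter and had 1.616, 4.826 and 6.599 CPM in control and 2.427, 8.11 and 10.53 CPM with L-NAME. Although 5 of 8 L-NAME mice lay above every control mouse, the difference did not pass (0.67 ± 0.38, adjusted p = 0.286). Nos1, the neuronal synthase, had a median of 1.5 reads per library in control (0 to 22) and 0 reads with L-NAME (0 to 24), and Nos2, the inducible synthase, a median of 0 reads in both groups (at most 8 and 21 reads). Both were too low to be tested.

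Of 24 genes of nitric oxide synthesis and arginine metabolism 1 rose and 3 fell, beside 11.7% of all genes tested, with a median of 0.02, compared to 0.02 over all genes. Cps1, which feeds ammonia into the urea cycle, had 2527, 3510 and 5025 CPM in control and 981.2, 2052 and 2905 CPM with L-NAME, with 7 of 8 L-NAME mice below every control mouse (-0.90 ± 0.23, adjusted p = 0.00611). The arginine carrier Slc7a2 fell by 0.54 and Azin1, an inhibitor of antizyme, by 0.38, while Pts, which makes the synthase cofactor tetrahydrobiopterin, rose by 0.50 from a median of 28.5 to 43.26 CPM (adjusted p = 0.0208). Slc7a2 lost its call in 11 of the 16 fits without 1 mouse (adjusted p up to 0.132), Azin1 in 4 (up to 0.0878) and Pts in 2, those without control mouse 40 or 46 (up to 0.0544). Arginase 1 (Arg1), which competes for arginine, was at a median of 1106 CPM in control and 1048 CPM with L-NAME (-0.06 ± 0.12, adjusted p = 0.837). The arginine-making enzymes Ass1 (-0.18 ± 0.19, adjusted p = 0.658) and Asl (0.20 ± 0.16, adjusted p = 0.5) did not pass, nor did Ddah1 (-0.30 ± 0.13, adjusted p = 0.117) and Ddah2 (0.52 ± 0.41, adjusted p = 0.504), which break down the natural synthase inhibitor dimethylarginine. None of the 24 passed in the covariate fit. Cps1 had medians of 1831 to 2102 CPM with imatinib, nilotinib and ponatinib 10 mg/kg, near that of L-NAME, and 3347 CPM with ponatinib 3 mg/kg.

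**Figure D3:**
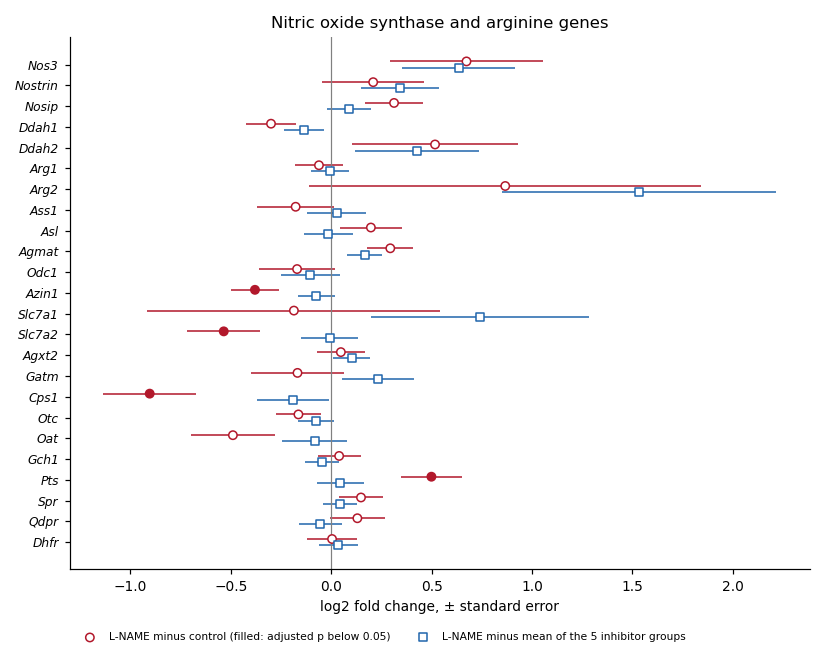
Log2 fold changes (points) with their SE (lines) of the 24 genes tested of nitric oxide synthesis and arginine metabolism, for L-NAME minus control and L-NAME minus the mean of the 5 inhibitor groups. Filled points pass adjustment, which holds against control for Azin1, Slc7a2, Cps1 and Pts and against the inhibitor groups for no gene.

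Downstream of nitric oxide, 1 of 13 genes of the receptor and cGMP pathway changed, beside 11.7% of all genes tested. It was Pde3b, a cGMP-inhibited phosphodiesterase, which fell from a median of 90.58 to 61.47 CPM (-0.51 ± 0.13, adjusted p = 0.00396). Pde3b kept its call in the covariate fit (adjusted p = 0.029), and its medians in the inhibitor groups were 65.91 to 87.78 CPM. Of 16 genes of the renin-angiotensin system and vasoactive peptides 3 fell, beside 6.22% of all genes tested. All 3 encode cell-surface peptidases. Enpep, which cleaves angiotensin II, had 111.8, 151.7 and 180.7 CPM in control and 66.62, 84.47 and 104.1 CPM with L-NAME, without overlap (-0.82 ± 0.19, adjusted p = 0.00269). Ece1, which releases endothelin, fell by 0.60 (adjusted p = 0.000477) and Anpep, aminopeptidase N, by 0.40 (adjusted p = 0.0127). Agt, angiotensinogen, did not pass (0.25 ± 0.10, adjusted p = 0.113). None of the 3 passed in the covariate fit, and none of the 16 passed adjustment against the mean of the inhibitor groups. There 1 of the 16 was lower at an unadjusted p below 0.01. The medians of the inhibitor groups were 89.17 to 134 CPM for Enpep and 162.2 to 207.7 CPM for Ece1, which was at 158 CPM with L-NAME. Of 18 genes of shear stress and endothelial activation none passed in edgeR, where 2 had an unadjusted p below 0.05, none in DESeq2 and 1 in limma voom. Of 20 sinusoidal endothelial markers Egfl7 rose (0.89 ± 0.20, adjusted p = 0.00163), with an adjusted p of 0.127 in the covariate fit.

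Chaperones of the endoplasmic reticulum were lower than in control. Of 33 genes of the ATF4 and endoplasmic reticulum stress list 8 fell and 1 rose, with a median of -0.29. Against the mean of the inhibitor groups none of the list passed adjustment, and the median was -0.12. Hyou1, a large chaperone, had 124, 296.3 and 697.6 CPM in control and 82.14, 131.4 and 205.1 CPM with L-NAME, with 3 of 8 L-NAME mice below every control mouse (-1.27 ± 0.27, adjusted p = 0.00123). Hspa5, which encodes BiP, had 651.8, 1224 and 2751 CPM in control and 591, 724.5 and 1047 CPM with L-NAME (-0.86 ± 0.23, adjusted p = 0.0106). With ponatinib 3 and 10 mg/kg the medians were 143.7 and 144.5 CPM for Hyou1 and 711.4 and 712.2 CPM for Hspa5. With imatinib and nilotinib they were 242.9 to 287.7 CPM for Hyou1 and 1189 to 1430 CPM for Hspa5. Dnajb9, a co-chaperone of BiP, had a median of 67.58 CPM in control (57.15 to 158.7) and 44.58 CPM with L-NAME (31.52 to 56.62), without overlap (-0.87 ± 0.21, adjusted p = 0.00419).

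Hsp90b1 (-0.58), Dnajc3 (-0.57), Pdia4 (-0.60), Canx (-0.53) and Edem1 (-0.50) fell too, whereas Atf4, a transcription factor of the stress response, rose by 0.34 (adjusted p = 0.0242). Ern1, which encodes the stress sensor IRE1 and was not on the list, had among the smallest p-values of all genes, at 47.54, 65.42 and 123.8 CPM in control and 26.35, 32.23 and 41.79 CPM with L-NAME (-1.08 ± 0.16, adjusted p = 9.64e-06). Without control mouse 1, the calls of Hspa5 (-0.65, adjusted p = 0.0575) and Dnajc3 (adjusted p = 0.0511) were lost. Those of Pdia4 and Atf4 were lost in 3 fits each (adjusted p up to 0.135 and 0.109). In the covariate fit Edem1 (adjusted p = 0.04) and Ern1 (adjusted p = 0.0044) passed.

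Transcripts of the cytosolic ribosome and of the respiratory chain rose together. Of 78 ribosomal protein genes 33 rose and none fell, with a median of 0.60, and of 77 nuclear genes of the respiratory chain and ATP synthase 48 rose and 3 fell, with a median of 0.53. Rpl14 had 50.51, 67.04 and 71.11 CPM in control and 96.99, 113 and 148.7 CPM with L-NAME, without overlap (0.86 ± 0.12, adjusted p = 9.64e-06). Rpl32 rose by 0.78 and Rps20 by 1.03. Atp5e, a small subunit of ATP synthase, had 59.97, 69.78 and 88.08 CPM in control and 103.8, 148.6 and 209.1 CPM with L-NAME, without overlap (1.02 ± 0.15, adjusted p = 9.64e-06). Ndufa4 rose by 0.70 and Cox4i1 by 0.61. The 3 that fell were Sdha (-0.59 ± 0.11, adjusted p = 0.000133), Ndufs1 (-0.51 ± 0.12, adjusted p = 0.00314) and Atp5b (-0.33 ± 0.09, adjusted p = 0.00676), which encode the large catalytic subunits of complexes II and I and of ATP synthase.

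These lists consist of short transcripts, and fold changes against control followed transcript length over all genes. In the fifth of genes with the shortest transcripts (longest annotated transcript of 57 to 1685 bases) the median log2 fold change was 0.29, followed by 0.10, -0.02, -0.08 and -0.15 in the next 4 groups, up to transcripts of 5046 bases or more. The median transcript was 1769 bases among the 785 higher genes and 4243 bases among the 890 lower genes. With an offset that removes this trend 14 ribosomal genes rose, and 19 respiratory genes rose and 4 fell. In the covariate fit 17 ribosomal genes rose, and 6 respiratory genes rose and 1 fell. Against the mean of the inhibitor groups the medians of the length groups ran from 0.08 to -0.03. There, at an unadjusted p below 0.01, 2 ribosomal genes were higher and 2 respiratory genes lower. The part of transcript length and of reads outside genes in these changes was not otherwise tested.

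**Figure D4:**
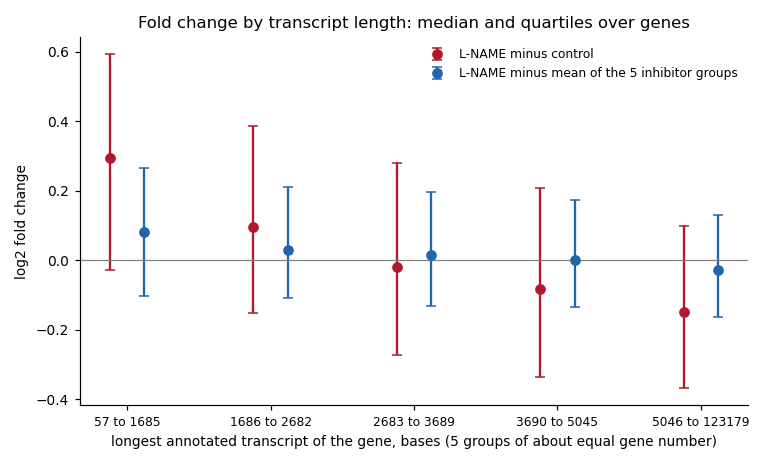
Median log2 fold change (points) and quartiles (lines) over the genes in 5 groups of about equal number, ordered by the length of the longest annotated transcript in bases. Against control the median falls from 0.29 in the shortest to -0.15 in the longest group, and against the mean of the 5 inhibitor groups from 0.08 to -0.03.

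**Figure D5:**
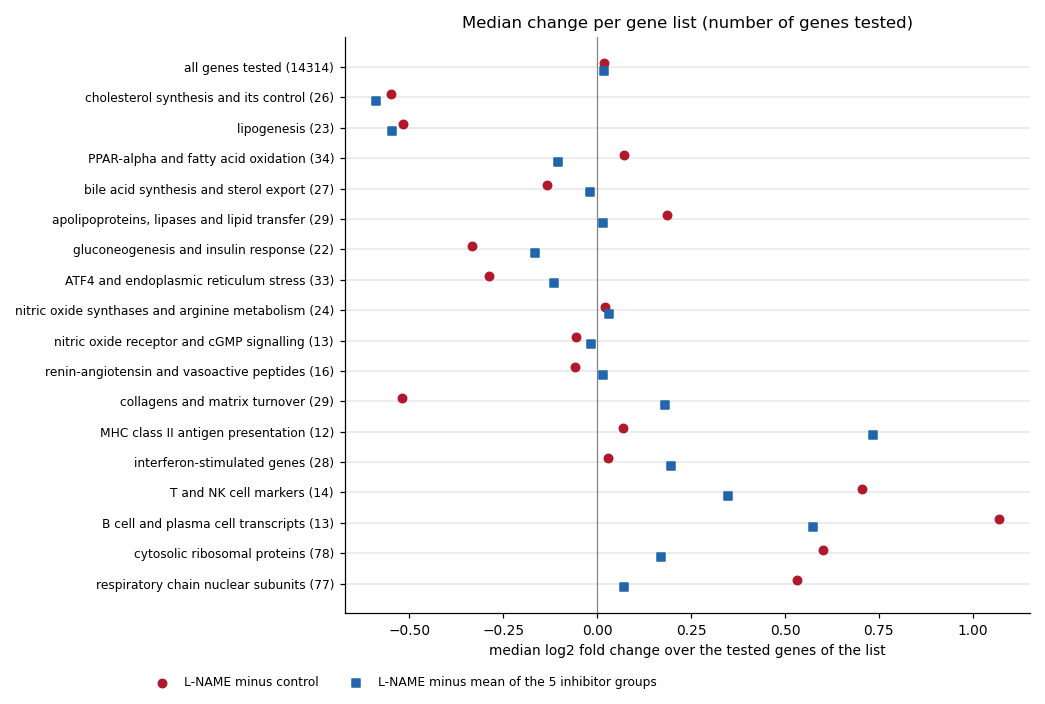
Median log2 fold change over the tested genes of 17 gene lists and of all genes tested, with the number of genes in brackets, for L-NAME minus control (circles) and L-NAME minus the mean of the 5 inhibitor groups (squares). The cholesterol and lipogenesis lists have medians between -0.59 and -0.52 in both comparisons, whereas those of the ribosomal and respiratory lists are 0.60 and 0.53 against control and 0.17 and 0.07 against the inhibitor groups.

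The genes with the smallest p-values in the whole comparison came from several processes, and all of the following changed with adjusted p of 3.28e-05 or less. Among those lower with L-NAME, Eif4g1, a scaffold of translation initiation, had 505.9, 546.5 and 641.6 CPM in control and 286.8, 333 and 396.6 CPM with L-NAME (-0.69 ± 0.10). Psmd1, a subunit of the proteasome, had 96.44, 108.8 and 148 CPM in control and 34.06, 46.87 and 76.22 CPM with L-NAME (-1.12 ± 0.16). The means of the inhibitor groups were 364.7 to 458.2 CPM for Eif4g1 and 61.59 to 87.89 CPM for Psmd1. In control the means were 555.5 and 113.4 CPM, and with L-NAME 345.4 and 52.22 CPM. Neither gene overlapped between L-NAME and control. Aplp2 (-0.68), the coatomer subunit Copa (-0.90), the iron regulatory aconitase Aco1 (-0.71), the DNA damage binding protein Ddb1 (-0.69), the protease Adam9 (-0.82), the actin-associated Palld (-1.87) and the splicing factor Prpf8 (-0.80) fell without overlap too, as did Gm5540 (-1.12) and Glns-ps1 (-1.24), which share sequence with other loci.

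Among those higher, the iron carrier transferrin (Trf) had 1304, 1753 and 2339 CPM in control and 2707, 2875 and 3653 CPM with L-NAME, without overlap (0.75 ± 0.12). The splicing factor Srsf11 (0.83), the peroxiredoxin Prdx5 (0.70), the proteasome subunit Sem1 (0.98), Fam193b (0.97), Rps27l (0.80), Gm6436 (1.11) and Xist (0.80), the RNA of the inactive X chromosome in these female mice, rose as well. Xist averaged 398.9 CPM in control, 696.1 CPM with L-NAME and 485.6 to 678.3 CPM in the inhibitor groups. All of the genes in this and the preceding paragraph passed in the covariate fit, at adjusted p of 0.0173 or less.

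The largest fold changes included several genes at low levels. The metal-binding metallothionein Mt1 had 15.89, 74.5 and 169.6 CPM in control and 131.3, 285.6 and 466 CPM with L-NAME, with 7 of 8 L-NAME mice above every control mouse (1.78 ± 0.54, adjusted p = 0.0228), and the call was lost without control mouse 1 or 46 (adjusted p up to 0.0532). Igkc, the constant region of antibody light chains, had 5.306, 6.941 and 10.03 CPM in control and 12.93, 18.64 and 57.74 CPM with L-NAME (1.69 ± 0.45, adjusted p = 0.00845). Il3ra, a cytokine receptor chain, had a median of 2.622 CPM in control and 8.661 CPM with L-NAME (1.67 ± 0.42, adjusted p = 0.00424), and neither gene overlapped between the groups. Slfn4 rose by 1.62 (adjusted p = 0.0461), a call lost in 11 of the 16 fits without 1 mouse (up to 0.162). With the covariate Mt1 and Igkc passed (adjusted p = 0.0474 and 0.0398), while Il3ra and Slfn4 had adjusted p of 0.0707 and 0.211. CT010467.1 had the largest rise, 2.37 ± 0.71 (adjusted p = 0.02), but 186 CPM lay in mouse 10 alone against a group median of 16.34 CPM, and without that mouse the fold change was 0.93 (adjusted p = 0.428).

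Among the lower genes, Ugt1a9, a glucuronosyltransferase, had 23.63, 56.59 and 107.9 CPM in control and 3.213, 13.7 and 20.64 CPM with L-NAME, without overlap (-2.23 ± 0.40, adjusted p = 0.000188). Ugt1a1, the enzyme that conjugates bilirubin, shares exons with Ugt1a9 and fell by 1.23 (adjusted p = 0.000218), so that the split of reads between them is uncertain. The other large falls were of the pseudogenes Tcea1-ps1 (-2.24), Selenot-ps (-2.34) and Gm12929 (-2.40), whose reads may come from their parent genes, and of 1 gene identifier without a symbol. Selenot-ps lost its call in 4 fits without 1 mouse (adjusted p up to 0.0592).

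Of 38 genes of drug metabolism and its nuclear receptors 2 rose and 6 fell, beside 5.48% and 6.22% of all genes tested. Apart from the Ugt1a genes, Cyp2f2, a periportal cytochrome, fell from a median of 465 CPM (357 to 565.1) to 255.3 CPM (195.6 to 360.1), and 7 of 8 L-NAME mice lay below every control mouse (-0.81 ± 0.15, adjusted p = 0.000123). Ugt2b1 (-0.52), Ugt2b35 (-0.47) and the retinal dehydrogenase Aldh1a1 (-0.49) fell, while Nr1i3, the receptor CAR, rose by 0.72 and Cyp3a25 by 0.51. Nr1i3 lost its call in 11 of the 16 fits without 1 mouse (adjusted p up to 0.128), Ugt2b35 in 4 (up to 0.0785) and Aldh1a1 without control mouse 12 or 40 (up to 0.054). In the covariate fit the 3 genes Cyp2f2, Ugt1a1 and Ugt1a9 passed.

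Among 32 antioxidant targets of NRF2, 3 rose and 5 fell, beside 5.48% and 6.22% of all genes tested, with a median of -0.20. Sod1, the cytosolic superoxide dismutase, had a median of 209.5 CPM in control (177.4 to 304.1) and 400.2 CPM with L-NAME (285.1 to 495.3), with 7 of 8 L-NAME mice above every control mouse (0.79 ± 0.14, adjusted p = 0.000123). Gpx1 (0.43) and Txn1 (0.54) rose without overlap. Catalase (Cat) had 2473, 2631 and 2859 CPM in control and 1609, 2059 and 2309 CPM with L-NAME, without overlap in the other direction (-0.43 ± 0.10, adjusted p = 0.00218). Txnrd1 (-0.59), Pgd (-0.61), Ugdh (-0.84) and Me1, counted above, fell. The Ugdh call was lost without control mouse 40 (adjusted p = 0.0666) and that of Pgd in 7 fits without 1 mouse (up to 0.135). Sod1, Gpx1 and Cat alone of the 32 passed in the covariate fit (adjusted p = 0.0463, 0.0315 and 0.0474).

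Plasma proteins made by the liver changed in both directions. Of 36 coagulation genes 2 rose and 4 fell and of 27 complement genes 3 rose and 2 fell, beside 11.7% of all genes tested. In the coagulation list Proc (0.49) and Vkorc1 (0.53) rose and F5 (-0.44), F13b (-0.49), Serpind1 (-0.32) and Ggcx (-0.57) fell. Vkorc1 and Ggcx are the reductase and the carboxylase of the vitamin K cycle. In the complement list C8g (0.61), Mbl1 (0.50) and Vtn (0.35) rose, and C3 (-0.57) and Masp1 (-1.58) fell. Masp1, a protease of the lectin pathway, had 28.82, 54.17 and 110.7 CPM in control and 12.65, 17.79 and 36.87 CPM with L-NAME (adjusted p = 0.000133). Serpind1 and C3 lost their calls in 9 fits each without 1 mouse (adjusted p up to 0.109 and 0.0768), Vtn in 10 (up to 0.112) and Mbl1 without L-NAME mouse 55 (0.0534). None of the 36 coagulation genes passed in the covariate fit, and of the complement genes Masp1 alone did (adjusted p = 0.0271). Of 25 acute-phase genes none passed against control in edgeR, where 7 had an unadjusted p below 0.05, but 3 passed in DESeq2 and 6 in limma voom.

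Lymphocyte transcripts were higher in L-NAME livers when summed. The 13 B cell and plasma cell genes tested summed to 31.11, 34.48 and 51.14 CPM in control and 50.88, 74.47 and 134.2 CPM with L-NAME, with 7 of 8 L-NAME mice above every control mouse (exact permutation test, two-sided, p = 0.000311, adjusted p = 0.00175 over 15 measures). T and NK cell markers summed to 13.64, 18.69 and 25.44 CPM in control and 20.9, 30.7 and 38.48 CPM with L-NAME, with 7 of 8 above again (exact permutation test, p = 0.000466, adjusted p = 0.00175). The inhibitor groups had B cell and plasma cell medians of 49.16 to 79.86 CPM, the highest with ponatinib 10 mg/kg and above that of L-NAME. Their T and NK cell medians were 16.36 to 29.29 CPM, with 26.93 and 29.29 CPM in the nilotinib groups. Gene by gene Igkc passed, whereas of the 14 T and NK cell markers none did in edgeR, where 1 had an unadjusted p below 0.05, none in DESeq2 and 1 in limma voom. Summed neutrophil markers had medians of 82.02 CPM in control and 149.2 CPM with L-NAME (exact permutation test, p = 0.0841). Erythroid markers averaged 288.8 CPM in control and 428.9 CPM with L-NAME (exact permutation test, p = 0.0361, adjusted p = 0.0901), and the exact p was 0.0721 without mouse 10. Kupffer cell markers had summed medians of 2138 CPM in control and 2492 CPM with L-NAME (exact permutation test, p = 0.279), and Clec4f of that list rose (0.69 ± 0.19, adjusted p = 0.0124, and 0.101 in the covariate fit). These sums are small beside those of hepatocyte markers, which were on average 147800 CPM in control and 148400 CPM with L-NAME, and their part in the other changes was not tested.

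Class II antigen presentation genes mostly did not pass between L-NAME and control, and were higher with L-NAME than with imatinib or ponatinib. Cd74, the invariant chain, had a median of 248.7 CPM in control and 257.7 CPM with L-NAME (0.04 ± 0.32, adjusted p = 0.962), compared to 94.72 CPM with imatinib, 108.3 and 82.93 CPM with ponatinib, and 213.9 and 272.1 CPM with nilotinib. H2-Aa (0.02), H2-Ab1 (0.06) and H2-Eb1 (0.08) did not pass against control, and of the 12 genes H2-Ob, at a median of 2.325 CPM in control and 6.373 CPM with L-NAME, rose (1.57 ± 0.50, adjusted p = 0.0288), a call lost in 4 fits without 1 mouse (adjusted p up to 0.0689) and in the covariate fit (0.172). At an unadjusted p below 0.01, 8 of the 12 were higher with L-NAME than with imatinib (background 3.74%), 5 than with ponatinib 3 mg/kg (3.36%) and 5 than with ponatinib 10 mg/kg (1.37%). None was higher than with nilotinib 10 mg/kg (1.19%) or 30 mg/kg (0.678%). Cd74 differed from imatinib by 1.46 ± 0.33 (adjusted p = 0.0056), and from ponatinib 3 and 10 mg/kg by 1.12 ± 0.32 and 1.35 ± 0.33 (adjusted p = 0.0355 and 0.044). Without mouse 10 none of the 12 passed adjustment against ponatinib 10 mg/kg, and in the covariate fit none did against ponatinib 3 mg/kg, with 5 at an unadjusted p below 0.01 in each case. Saa3, an acute-phase protein also made by macrophages, was at medians of 31.97 CPM with L-NAME, 17.76 CPM in control, 4.45 CPM with imatinib and 7.952 and 7.923 CPM with ponatinib, and differed from imatinib by 2.34 ± 0.49 (adjusted p = 0.00265).

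Of 29 collagen and matrix turnover genes 3 fell, beside 6.22% of all genes tested. The median of the list was -0.52 against control and 0.18 against the mean of the inhibitor groups. Col1a2, a chain of type I collagen, had 24.24, 91.15 and 167.1 CPM in control and 12.58, 29.07 and 81.95 CPM with L-NAME (-1.23 ± 0.37, adjusted p = 0.0225). Its median was 18.58 CPM with imatinib, 27.31 and 24.2 CPM with ponatinib 3 and 10 mg/kg, and 51.57 and 48.59 CPM with nilotinib 10 and 30 mg/kg. Mmp14, a membrane metalloproteinase, fell by 0.97 (adjusted p = 0.00542) and Col15a1 by 0.94 (adjusted p = 0.0425). Col1a2 lost its call in 3 fits without 1 mouse and Col15a1 in 8 (adjusted p up to 0.0659 and 0.116), and none of the 3 passed in the covariate fit, where the median of the list was -0.57. Of 18 stellate cell markers none passed in edgeR, DESeq2 or limma voom, and 1 had an unadjusted p below 0.05 in edgeR.

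Over all genes tested 5.48% were higher and 6.22% lower, and the interferon, pericentral and heat shock counts that follow lay near these shares. The interferon-stimulated list held 2 higher genes, Oas2 (0.90) and Bst2 (0.50), and 2 lower genes among 28. Iigp1 was one of these at -0.99, but it was at 2817 CPM in control mouse 33 against a control median of 387.4 CPM, and without that mouse the fold change was -0.09 (adjusted p = 0.776). Ddx58 (-0.39) lost its call in 9 fits without 1 mouse (adjusted p up to 0.109). Vegfa rose among the 21 hypoxia targets (0.52, adjusted p = 0.0112) and Igfbp2 among the 32 growth hormone and IGF genes (0.82, adjusted p = 0.0237, lost in 4 fits at up to 0.0816). The ribosomal RNAs of mitochondrial DNA, mt-Rnr1 (0.77) and mt-Rnr2 (0.79), rose among its 12 genes tested. Of 20 hepatocyte markers 8 rose and 3 fell (Cps1, Tat and Hnf4a, a hepatocyte transcription factor, -0.47). Of 26 pericentral genes 1 rose and 2 fell, among them Glul (-0.41), and of 24 periportal genes 1 rose and 5 fell, among them Pigr (-0.62), the receptor that carries antibodies into bile. Of 26 heat shock and immediate-early genes 2 rose and 2 fell, of 31 of iron, heme and zinc 2 rose (Trf and Mt1), and of 23 clock genes 1 fell (Lpin1). With the covariate no gene passed of the interferon, growth hormone, mitochondrial DNA, pericentral and clock lists. Vegfa did not pass there (adjusted p = 0.477), although 1 other hypoxia target was higher. In that fit 3 hepatocyte markers were higher and 1 periportal gene (Cyp2f2) was lower. Higher as well were 1 heat shock and immediate-early gene and 2 genes of iron, heme and zinc.

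In edgeR no gene passed among 21 recruited monocyte and inflammatory genes, 28 of the cell cycle, 5 of neutrophils, 9 of erythroid cells and 14 of cholangiocytes, of which 1, 1, 1, 2 and 0 had an unadjusted p below 0.05. None of these passed in DESeq2, and in limma voom 3, 1, 1, 0 and 0 did.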

How the data were processed

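Poly(A) RNA of 56 mouse livers was sequenced, and the authors deposited a table of read counts per gene (HTSeq 0.6.1p1). The submitters' processing notes name TopHat2 2.0.14, Bowtie2 2.1.0, SAMtools 0.1.18 and GRCm38. Whether counting used strand is not given in the sources used here, so overlapping and antisense genes are uncertain. Rows without a gene were kept out of library sizes. Counts were analysed with edgeR 4.0.16 (filterByExpr with a minimum count of 10, TMM factors, robust quasi-likelihood fit of the 7 groups, Benjamini-Hochberg adjustment) in R 4.3.3, after the scripts were tested on simulated data. DESeq2 1.42.0 and limma 3.58.1 voom were alternatives. Summed values were compared by exact permutation (scipy 1.17.1). Groups came from the labels, and replicates are separate mice. L-NAME, its comparisons and the gene lists were chosen with earlier results of these data known. Genes named were the 12 with the smallest p per direction, the 5 with the largest fold change per direction (mean of 5 CPM or more in the higher group), list members with an unadjusted p below 0.01 or examples of a list, and Nos1, Nos2, Nos3, Ddah1, Ddah2, Arg1, Ass1 and Asl. Genes without a symbol were counted only. Prmt1, Pde2a, Klkb1 and Ahsp were not analysed here. Some further genes are not reported here.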

Additional observations from a re-analysis of the deposited data

Results flagged for a closer look

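Among 376 sets of 8 values, 34 held a mouse far from the other 7 by Dixon's 95% criterion, which chance alone meets in about 1 in 20 sets. They are given in CPM unless stated, as values. L-NAME mouse 10 had 4 of them, with 97470000 reads on genes, 16.75% of reads outside genes, mt-Rnr2 at 2778 and CT010467.1 at 186. L-NAME mouse 26 was highest for Ece1 (231.7), Hsp90b1 (1119), Pdia4 (486.1), Glns-ps1 (102), Igkc (57.74) and Masp1 (36.87). L-NAME mouse 55 was highest for Apoc1 (4419), Apoc2 (369.1), Ndufa4 (326.8) and Rps27l (158.4), mouse 50 for Aldh1a1 (1138) and Ugdh (178.1), and mouse 5 for Acaa1a (465.7).

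Control mouse 46 was highest for Acacb (404.1), Gpam (292), Lrp1 (1516), Ppara (113.5), Psmd1 (148) and Prpf8 (319.7). Control mouse 22 was highest for Aco1 (350.6), Prdx5 (213.7), Sem1 (39.73) and CT010467.1 (13.74) and lowest for Cyp51 (36.36). Control mouse 1 was highest for Ern1 (123.8) and Palld (56.65), mouse 12 for Tat (1647), mouse 40 for Ugdh (359.4), mouse 33 for Iigp1 (2817) and mouse 52 for the summed B cell and plasma cell transcripts (51.14).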

How the results depend on the processing

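Of the values of the 172 named genes under 27 alternatives to the comparison with control, 4233 kept their direction and side of the threshold, 362 no longer passed, 45 newly passed and 1 reversed, CT010467.1, at -0.58 with the share of reads outside genes as a covariate. Of the 146 called, 110 passed in each fit that left out 1 mouse, 48 with the covariate, 108 with the length offset and 128 without mouse 10. The count of 1675 genes was 2531 with limma voom, 3687 with voom sample weights, 254 with the covariate, 1084 with the length offset and 1311 to 1782 without 1 mouse. At an unadjusted p below 0.01 it was 3479 with the weights, 893 with the covariate and 1730 to 2068 without 1 mouse. Cholesterol genes lower (5) were 9 with DESeq2, 8 with voom, 14 with the weights, 13 with the 16 mice alone, 1 with the covariate and 4 to 7 without 1 mouse. Lipogenesis genes (10) were 5 with the covariate and 9 to 10 without 1 mouse. Respiratory genes called (51) were 7, 23 with the length offset and 41 to 54, and ribosomal genes (33) were 17, 14 and 28 to 33.

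Against the mean of the inhibitor groups, voom gave 669 genes (1370 at an unadjusted p below 0.01) and 11 ribosomal genes, and the covariate gave 0 genes, 1 respiratory and 1 ribosomal gene. Without mouse 10 these were 0 genes, 317 at an unadjusted p below 0.01, 15 cholesterol, 7 lipogenesis, 0 respiratory and 1 ribosomal gene. Against imatinib 270 genes passed without mouse 10, with 17 cholesterol and 3 lipogenesis genes, against ponatinib 3 mg/kg 315 (31 with the covariate), with 22 and 13, and against ponatinib 10 mg/kg 24, with 21 and 13. Against nilotinib 10 mg/kg 0 passed, with 0 and 2 (2 lipogenesis genes with the covariate), and against 30 mg/kg 1, with 0 and 1. The difference in reads outside genes was 2.2 percentage points without mouse 10. The cause of these shifts was not tested. The length offset, and the fits against single inhibitor groups, were chosen after seeing the data, as was the covariate against the inhibitor groups. The labels give no pairing of L-NAME with control mice, and no paired analysis was run. Depth limited genes at a few reads, such as Nos1 and Nos2.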
